A study of Homo sapiens with 6 samples.

Results

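The genes described here are the 7 CDK inhibitor genes CDKN1A, CDKN1B, CDKN1C, CDKN2A, CDKN2B, CDKN2C and CDKN2D, taken by symbol from the 36601 genes of the deposited matrices, and all 7 were found. They were followed through 6 single-cell RNA libraries of SK-N-BE(2)-C, a line of human neuroblastoma cells. The libraries were made with Seq-Well S3, in which single cells are captured in small wells with barcoded beads. The 3 groups of 2 libraries were cells given DMSO (the solvent control), cells given TSA (the usual abbreviation of trichostatin A, which blocks histone deacetylase enzymes, HDACs) and cells given E6R, a compound known here only by that name. The series title speaks of an inhibitor that acts on the HDAC complex in a non-enzymatic way, and its design text calls the agents HDAC inhibitors. The sources used here give no dose and no length of treatment. All groups were the same line, and nothing in the labels says that replicates 1 and 2 of a group came from separate cultures, so p-values measure the spread between these libraries, which may be technical. The deposited data of TSA replicate 2 alone carry the tag reWTA in their name, which the labels do not explain, and that library was used like the others.

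Cyclin-dependent kinases (CDKs) drive the cell cycle when bound to cyclins, and the proteins of these genes hold them back. CDKN1A (p21), CDKN1B (p27) and CDKN1C (p57) form the CIP/KIP family, which binds cyclin-CDK complexes, foremost those of CDK2. CDKN2A (p16), CDKN2B (p15), CDKN2C (p18) and CDKN2D (p19) form the INK4 family, which binds CDK4 and CDK6 and keeps D-type cyclins from activating them. CDKN2A also encodes ARF, from another first exon and reading frame. CDKN1A is the member best known to rise with HDAC inhibitors, through GC boxes near its start.

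Promoter sequence is shown for the member best known as an HDAC inhibitor target and for CDKN1B, CDKN2A and CDKN2D, whose RNA passed the test of E6R against TSA under every alternative tried. The sequences are RefSeq windows on GRCh38.p14, the 250 bases before the annotated start, read 5′ to 3′ on the gene's strand. Capitals mark GC boxes (GGGCGG or its complement CCGCCC) and CCAAT boxes (CCAAT or ATTGG), with overlapping matches counted. The first window is that of CDKN1A, at chr6:36678464-36678713 on the plus strand.
CDKN1A: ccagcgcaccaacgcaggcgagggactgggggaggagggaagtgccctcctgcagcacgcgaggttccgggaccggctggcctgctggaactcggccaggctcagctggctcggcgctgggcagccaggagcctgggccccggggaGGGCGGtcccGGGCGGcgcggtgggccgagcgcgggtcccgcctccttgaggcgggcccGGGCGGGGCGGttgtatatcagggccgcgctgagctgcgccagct
The second is CDKN1B, at chr12:12717118-12717367 on the plus strand.
CDKN1B: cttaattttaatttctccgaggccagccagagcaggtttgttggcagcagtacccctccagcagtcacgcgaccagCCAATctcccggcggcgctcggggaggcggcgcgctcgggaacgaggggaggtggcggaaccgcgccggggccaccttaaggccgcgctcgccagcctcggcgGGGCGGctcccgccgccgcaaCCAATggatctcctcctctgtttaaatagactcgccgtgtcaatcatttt
CDKN2A has one window for each of its 2 starts, both on the minus strand: the farther one at chr9:21995325-21995574 and the nearer one at chr9:21974858-21975107.
CDKN2A, farther start: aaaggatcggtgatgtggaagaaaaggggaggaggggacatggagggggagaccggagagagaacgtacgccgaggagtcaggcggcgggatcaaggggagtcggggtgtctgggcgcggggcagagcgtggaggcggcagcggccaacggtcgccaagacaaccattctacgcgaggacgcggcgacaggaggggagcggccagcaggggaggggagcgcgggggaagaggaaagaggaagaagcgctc
CDKN2A, nearer start: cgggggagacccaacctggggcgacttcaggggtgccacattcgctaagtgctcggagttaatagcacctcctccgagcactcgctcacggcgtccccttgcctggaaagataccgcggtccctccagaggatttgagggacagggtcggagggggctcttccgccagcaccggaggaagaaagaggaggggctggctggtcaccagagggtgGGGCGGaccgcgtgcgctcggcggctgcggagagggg
The last is CDKN2D, at chr19:10568980-10569229 on the minus strand.
CDKN2D: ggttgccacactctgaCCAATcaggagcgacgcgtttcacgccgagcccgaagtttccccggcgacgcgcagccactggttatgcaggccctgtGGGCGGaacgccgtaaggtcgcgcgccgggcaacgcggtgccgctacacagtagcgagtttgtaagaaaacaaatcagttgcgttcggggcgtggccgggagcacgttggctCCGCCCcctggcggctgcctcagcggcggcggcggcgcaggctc

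The CDKN1A window held 4 GC boxes, the CDKN2D window 2, the CDKN1B window 1, and the CDKN2A windows 0 and 1. A GC box was present in 42.64% of all 35116 RefSeq windows of this length, and 13.88% held 3 or more. CCAAT boxes numbered 2 in the CDKN1B window and 1 in the CDKN2D window, and 32.01% of all windows held at least 1. No member window held TATAAA or its complement TTTATA, which 10.72% of all windows held. The G and C content of the windows shown was 76.4% for CDKN1A, 64.4% for CDKN1B, 66.8% for each CDKN2A start and 67.6% for CDKN2D, against a median of 58.0% over all windows. Of the member windows not shown, that of CDKN2B held 2 GC boxes and the 3 of CDKN2C held 0, 5 and 1. These are matches of letters only, and RefSeq windows matched 6 of the 7 members.

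A barcode counted as a cell from 500 genes upward, if no more than 20% of its unique molecular identifiers (UMIs, which count RNA molecules) were mitochondrial. This kept 17589 cells, 1861 to 3946 a library, and their UMIs were summed by library to between 4206366 and 26180262, with the DMSO sums the smallest. Levels below are UMI counts relative to the library sum (CPM), with sums scaled by TMM, and log2 fold changes are given ± SE from edgeR's quasi-likelihood test over 16763 genes, with p-values adjusted by Benjamini-Hochberg and a threshold of 0.05. Levels are compared between libraries for one gene, not between genes. All 11 adrenergic neuroblastoma markers were detected, at a summed 3651 to 6520 CPM. The 4 leukocyte markers summed to 7.98 to 11.9 CPM. Fibroblast, endothelial and epithelial marker sums differed by library as given with CDKN1A. Between 17 and 100 cells of a library (0.759% to 2.53%) had a barcode also present among the cells of another library. Leaving those cells out changed no call on any of the 7 genes in the 3 treatment comparisons.

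Of the 3 CIP/KIP genes, CDKN1C was higher and CDKN1B lower under TSA than under DMSO, while CDKN1A did not pass the test. Of the 4 INK4 genes, CDKN2D was higher and CDKN2A lower, and CDKN2B and CDKN2C did not pass. This made 4 of 7 members called in TSA against DMSO, where 29.7% of all tested genes were called, 16.2% higher and 13.5% lower. For E6R against DMSO 0 of 7 were called and 0% of all genes. For E6R against TSA 5 of 7 were called, CDKN1B, CDKN2A and CDKN2C higher and CDKN1C and CDKN2D lower, against 38.2% of all genes (18.7% higher and 19.5% lower). With DMSO replicate 1, DMSO replicate 2, TSA replicate 1 or TSA replicate 2 left out, the 4 members called became 0, 2, 0 and 1, and the 5 became 3 without either TSA library. The last comparison shares its TSA libraries with the first, so the calls of these comparisons are not independent. Mitochondrial genes gave 5.83% and 6.20% of UMIs in the DMSO cells, 6.08% and 9.71% under TSA, and 1.55% and 1.51% under E6R, lowest in both E6R libraries, and its part in these calls was not tested. In bulk sums, fewer cells with an RNA and less RNA per cell cannot be told apart.

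**Figure D1:**
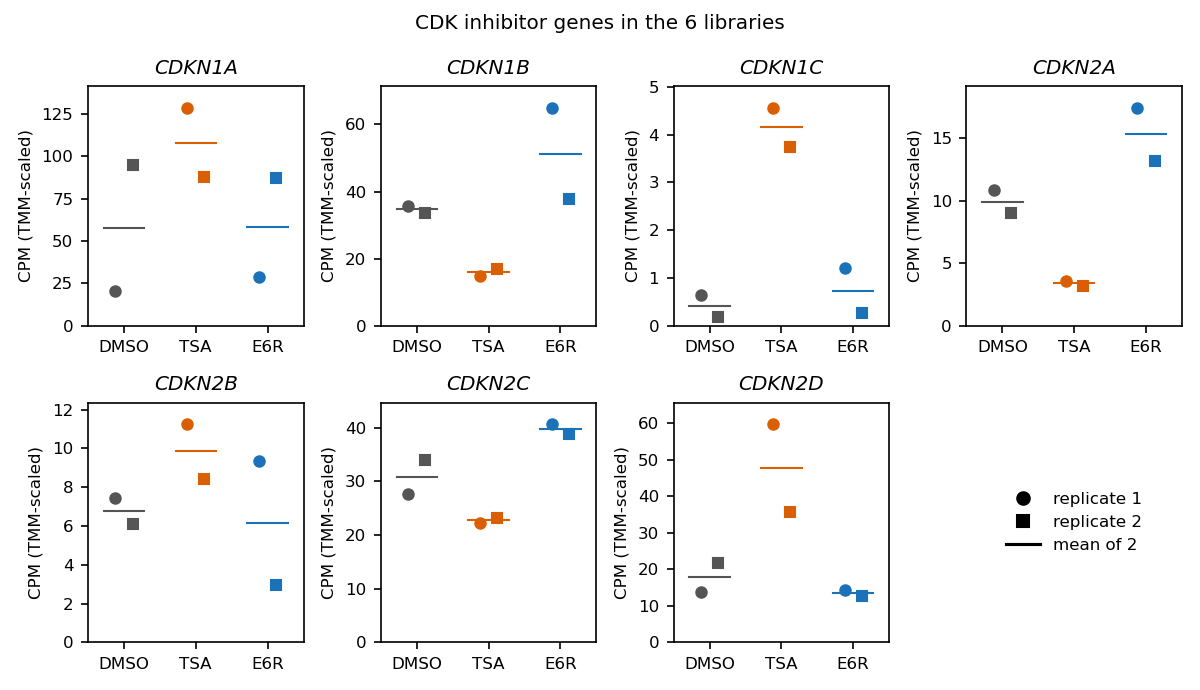
TMM-scaled CPM of the 7 CDK inhibitor genes in each library (circles replicate 1, squares replicate 2, lines the mean of 2), by treatment, with each vertical axis starting at 0. CDKN2D in TSA lies at 59.6 and 35.6 CPM, above every DMSO and E6R library, while the replicates of CDKN1A lie far apart under DMSO and E6R.

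CDKN1A (ENSG00000124762, GENCODE 29 on GRCh38, chr6:36676460-36687339, plus strand) encodes p21, which stops CDK2 and binds PCNA. Its level was 20.4 and 95.1 CPM in DMSO replicates 1 and 2, 128 and 87.4 CPM under TSA, and 29 and 87.4 CPM under E6R. Replicate 1 of DMSO and of E6R was low and the other 4 libraries were high, so the TSA and DMSO values overlapped, as did E6R and DMSO. TSA lay 0.90 ± 0.69 (log2) above DMSO (adjusted p = 0.352), E6R 0.01 ± 0.69 above DMSO (adjusted p = 0.997), and E6R against TSA was -0.89 ± 0.68 (adjusted p = 0.332). None of these passed the edgeR test.

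The size of the TSA difference depended on which libraries were set side by side. Between the libraries numbered 1, TSA minus DMSO was 2.65 on the log2 scale, and between those numbered 2 it was -0.12. Replicate 2 exceeded replicate 1 by 2.21 under DMSO and by 1.59 under E6R, and lay below it under TSA, at -0.55. Among 7515 genes with a mean of at least 20 CPM, that replicate gap stood at percentile 99.4 under DMSO, 98.0 under E6R and 91.2 under TSA, where the median gaps were 0.25, 0.28 and 0.19. Without DMSO replicate 2, TSA against DMSO was 2.33 (adjusted p = 0.0625). Without DMSO replicate 1 it was 0.22 (adjusted p = 0.821). No single library left out brought the adjusted p under 0.05.

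Markers of other cell types also differed by library. The fibroblast markers summed to 110 and 27.3 CPM in DMSO replicates 1 and 2, 115 and 67.6 under TSA, and 256 and 27.7 under E6R, with all 5 detected in every library. The 3 endothelial markers summed to 55.4 and 4.38, 10.6 and 3.90, and 65.8 and 1.91 CPM in the same order. Replicate 1 had the higher sum in each treatment for both lists. Of the fibroblast markers DCN had the widest gap in each treatment, at 63.7 and 2.09 CPM under DMSO and 165 and 1.95 under E6R. Not every fibroblast marker followed the sum. Replicate 2 was higher for COL1A2 under DMSO (0.951 and 5.84 CPM). It was also slightly higher for PDGFRB under DMSO (6.42 and 6.68 CPM) and TSA (3.22 and 3.53 CPM). The 3 epithelial markers summed to 30.9 and 81.6, 9.52 and 8.63, and 43.5 and 96.0 CPM, nearly all of it from 1 gene, KRT19, at 29.5 and 80.5, 9.24 and 8.11, and 42.3 and 95.4 CPM. EPCAM was higher in replicate 1 under DMSO (1.43 against 0.626 CPM) and E6R (1.14 against 0.535 CPM), and KRT5 had 0 to 3 UMIs a library. The part of these markers in the CDKN1A values was not tested.

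In some libraries single cells held many CDKN1A UMIs. In E6R replicate 2 the 1% of cells richest in CDKN1A UMIs carried 39.4% of them, up to 76 in a cell. In TSA replicate 1 that share was 17.3% and the highest cell had 19, and in DMSO replicate 1 it was 41.7% of 96 UMIs. The cells were ranked by the gene's own UMIs, so this share is high by construction where UMIs are few. It does not rank genes or libraries of unlike counts. High shares were not particular to CDKN1A. In E6R replicate 2 the like shares of the other members ran from 31.5% (CDKN2C) to 100% (CDKN1C, 7 UMIs). There the 1% of cells with most UMIs held 22.5% of all UMIs, against 11.0% in TSA replicate 1. With the 5% of cells with most UMIs left out of every library, E6R against DMSO was -0.29 in place of 0.01, and neither value passed the test.

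CDKN1B (ENSG00000111276, chr12:12715058-12722371, plus strand) encodes p27, a brake on cyclin E-CDK2 that is held in check largely by protein turnover. Its level was 35.7 and 33.7 CPM under DMSO, 14.9 and 17.1 CPM under TSA, and 65.0 and 37.7 CPM under E6R. The order was E6R, DMSO, TSA, with no overlap between groups, though the lower E6R library was close to DMSO. CDKN1B fell under TSA against DMSO by 1.12 ± 0.29 on the log2 scale (adjusted p = 0.0248), and was higher under E6R than under TSA by 1.68 ± 0.29 (adjusted p = 0.00366). The E6R against DMSO difference of 0.56 ± 0.29 did not pass (adjusted p = 0.350). The TSA against DMSO call was lost without any one of DMSO replicate 1 (adjusted p = 0.114), DMSO replicate 2 (0.0690), TSA replicate 1 (0.164) or TSA replicate 2 (0.121), each with the log2 value kept between -0.99 and -1.24. The E6R against TSA call held without each library in turn, with log2 values of 1.31 to 2.04. An overlapping gene on the same strand, AC008115.3, shares part of the CDKN1B span.

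CDKN1C (ENSG00000129757, chr11:2883213-2885773, minus strand) encodes p57, an imprinted gene expressed mainly from the maternal copy. It was detected by 3 and 1 UMIs in the DMSO libraries, 60 and 43 under TSA, and 19 and 7 under E6R, which is 0.637 and 0.191 CPM, 4.56 and 3.74 CPM, and 1.20 and 0.263 CPM. Both TSA libraries were above the other 4, and the DMSO and E6R values overlapped. From the summed UMIs the TSA to DMSO ratio was 8.40 (exact 95% interval 3.18 to 31.4), the E6R to DMSO ratio 1.39 (0.484 to 5.50) and the TSA to E6R ratio 6.02 (3.89 to 9.65). These intervals cover counting error only. By edgeR, CDKN1C rose under TSA against DMSO (adjusted p = 0.0309) and was lower under E6R than under TSA (adjusted p = 0.0306), at fitted log2 values of 3.32 ± 0.93 and -2.55 ± 0.76 that depend on the prior count. E6R against DMSO did not pass (adjusted p = 0.723).

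The CDKN1C calls rested on few UMIs and were lost without single libraries. For TSA against DMSO, leaving out DMSO replicate 1 gave an adjusted p of 0.0762 and leaving out DMSO replicate 2 one of 0.158. Leaving out TSA replicate 1 gave 0.134, and TSA replicate 2 gave 0.109. For E6R against TSA it was 0.153 without TSA replicate 1, 0.122 without TSA replicate 2 and 0.0625 without E6R replicate 2. The fitted direction was the same in each of these 7 fits. Leaving out the 5% of cells richest in UMIs also ended both calls (adjusted p = 0.0675 and 0.0884), and thinning the library sums to the smallest ended that of E6R against TSA (0.0684).

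CDKN2A (ENSG00000147889, chr9:21967753-21995301, minus strand) encodes p16 and ARF, and a gene count cannot separate these 2 products. Its level was 10.8 and 8.99 CPM under DMSO, 3.57 and 3.22 CPM under TSA, and 17.4 and 13.2 CPM under E6R. Both TSA libraries were lowest and both E6R libraries highest, without overlap. CDKN2A fell under TSA by 1.54 ± 0.34 on the log2 scale (adjusted p = 0.0129), and was higher under E6R than under TSA by 2.17 ± 0.33 (adjusted p = 0.00228). E6R lay 0.63 ± 0.32 above DMSO, which did not pass (adjusted p = 0.352). The TSA against DMSO call was lost without any one of DMSO replicate 1 (adjusted p = 0.0700), TSA replicate 1 (0.0858) or TSA replicate 2 (0.112), at log2 values of -1.36 to -1.75 over all libraries left out, and the E6R against TSA call held without each library in turn. CDKN2B-AS1 and AL359922.1 overlap CDKN2A on the opposite strand. The sources used here do not say whether counting used strand, so reads of the overlapped parts cannot be told apart.

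CDKN2B (ENSG00000147883, chr9:22002903-22009363, minus strand) encodes p15, an INK4 protein known as a target of TGF-beta signalling, and lies next to CDKN2A. Its level was 7.44 and 6.12 CPM under DMSO, 11.2 and 8.45 CPM under TSA, and 9.35 and 2.93 CPM under E6R. The E6R libraries spanned the DMSO values, and no difference passed the edgeR test. The log2 values were 0.54 ± 0.55 for TSA against DMSO (adjusted p = 0.482), -0.15 ± 0.55 for E6R against DMSO (adjusted p = 0.907) and -0.69 ± 0.53 for E6R against TSA (adjusted p = 0.329). Without E6R replicate 1 the last became -1.67 (adjusted p = 0.0156). The same 2 opposite-strand genes that overlap CDKN2A overlap CDKN2B.

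CDKN2C (ENSG00000123080, chr1:50960745-50974633, plus strand) encodes p18, an INK4 protein that binds CDK4 and CDK6. Its level was 27.6 and 34.0 CPM under DMSO, 22.2 and 23.2 CPM under TSA, and 40.6 and 38.8 CPM under E6R. The 3 groups did not overlap, in the order E6R, DMSO, TSA, and the replicates were close together. E6R was higher than TSA by 0.81 ± 0.21 (log2, adjusted p = 0.0203), while TSA against DMSO, at -0.44 ± 0.22 (adjusted p = 0.161), and E6R against DMSO, at 0.36 ± 0.22 (adjusted p = 0.415), did not pass. The E6R against TSA call was lost without TSA replicate 1 (adjusted p = 0.125) or TSA replicate 2 (adjusted p = 0.116). With library totals in place of TMM, TSA against DMSO passed at -0.75 (adjusted p = 0.0364). That scaling moved the median of all genes in this comparison from -0.01 to -0.32.

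CDKN2D (ENSG00000129355, chr19:10566462-10569059, minus strand) encodes p19, the INK4 protein that cycles with S phase in many dividing cells. Its level was 13.8 and 21.8 CPM under DMSO, 59.6 and 35.6 CPM under TSA, and 14.4 and 12.7 CPM under E6R. Both TSA libraries lay above the other 4, and the DMSO and E6R values overlapped. CDKN2D rose under TSA by 1.42 ± 0.33 against DMSO (log2, adjusted p = 0.0169) and was lower under E6R than under TSA, at -1.81 ± 0.33 (adjusted p = 0.00444). E6R against DMSO was -0.40 ± 0.33 (adjusted p = 0.567). The TSA against DMSO call was lost without DMSO replicate 1 (adjusted p = 0.0927) and without TSA replicate 1 (adjusted p = 0.133), and the E6R against TSA call held without each library in turn.

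**Figure D2:**
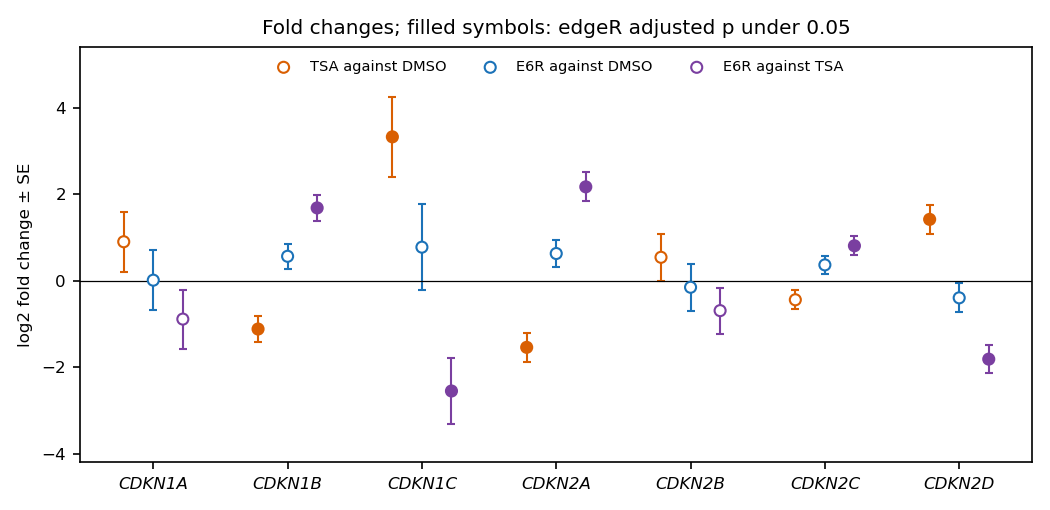
Log2 fold change ± SE of each of the 7 genes in the 3 comparisons, from the edgeR fit over all 6 libraries; filled symbols passed an adjusted p of 0.05. The TSA against DMSO and E6R against TSA values of a gene share the TSA libraries and lie on opposite sides of 0 for all 7 genes, and none of the E6R against DMSO symbols is filled.

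Under E6R against DMSO, CDKN1B, CDKN2A and CDKN2C were higher by CPM in both E6R libraries than in either DMSO library, which held in one direction or the other for 47.3% of all tested genes. The log2 differences of these genes were 0.56, 0.63 and 0.36. With cells thinned to 1000 UMIs they were 0.15, 0.05 and 0.23. By edgeR 0 of the 7 members had an unadjusted p under 0.05 in this comparison, against 17.4% of all genes, and DESeq2 called 0 of 7. The SE of these 7 log2 differences ran from 0.22 for CDKN2C to 0.99 for CDKN1C, so the precision differed widely between members.

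The share of cells with at least 1 UMI of a gene was compared after each cell was thinned at random to 1000 UMIs. This left 1187 to 2789 cells a library and dropped shallower cells. For CDKN1A the thinned share was 1.94% (exact 95% binomial interval 1.23 to 2.89) and 9.45% (8.10 to 11.0) under DMSO. It was 9.99% (8.66 to 11.4) and 5.77% (4.94 to 6.70) under TSA, and 2.50% (1.89 to 3.24) and 7.09% (6.06 to 8.24) under E6R. The low and high libraries were the same as by CPM. Without thinning the shares were 4.03% and 12.7%, 28.7% and 17.3%, and 10.4% and 17.3%. Unthinned shares carry the depth of the cells: those with a CDKN1A UMI had a library median of 1570 to 11071 UMIs, and those without one of 999 to 1685.

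The thinned share for CDKN2D was 1.60% and 2.32% under DMSO, 5.56% and 2.58% under TSA, and 1.0% and 0.583% under E6R. TSA replicate 1 stood above the rest, and the 95% interval of TSA replicate 2 (2.03 to 3.24) overlapped that of DMSO replicate 2 (1.65 to 3.16). For CDKN1B the share was 4.55% and 3.45%, 1.35% and 1.72%, and 5.59% and 3.19% in the same order, with both TSA libraries lowest. For CDKN2A it was 1.35% and 1.37%, 0.162% and 0.394%, and 1.91% and 0.898%, again lowest under TSA. CDKN2C was seen in 3.12% and 3.86%, 2.05% and 1.76%, and 4.55% and 3.59% of cells, and CDKN2B in 0.505% and 0.595%, 1.30% and 0.502%, and 1.09% and 0.135%. For CDKN1B, CDKN2A and CDKN2C the share in E6R replicate 2 was below that in DMSO replicate 2. By thinned share, E6R was therefore not above DMSO in both libraries for these genes. CDKN1C was seen in 0.0842% and 0%, 0.378% and 0.251%, and 0.227% and 0.0449%, where 0 cells of DMSO replicate 2 still allow up to 0.219% (upper end of its exact interval).

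At this thinned depth most cells carried no UMI of any member: 80.2% to 87.6% of cells had none, 11.9% to 18.7% had 1 of the 7 genes, and 0.449% to 2.14% had 2 or more. The barcodes that the filter left out had a median of 122 to 299 UMIs. They can hold shallow or highly mitochondrial cells as well as free RNA, so they do not gauge free RNA alone. There CDKN1A stood at 10.9 and 82.2 CPM under DMSO, 87.0 and 49.9 under TSA, and 16.3 and 65.3 under E6R, on plain library totals. In the cells the plain values were 22.8 and 104, 118 and 75.4, and 29.1 and 88.7 CPM. The left-out barcodes were lower in every library and showed the same low and high libraries. Their unthinned share with a CDKN1A UMI was 0.197% to 2.35%. The line has no cell type that should lack the gene, so the background in cells was not measured.

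**Figure D3:**
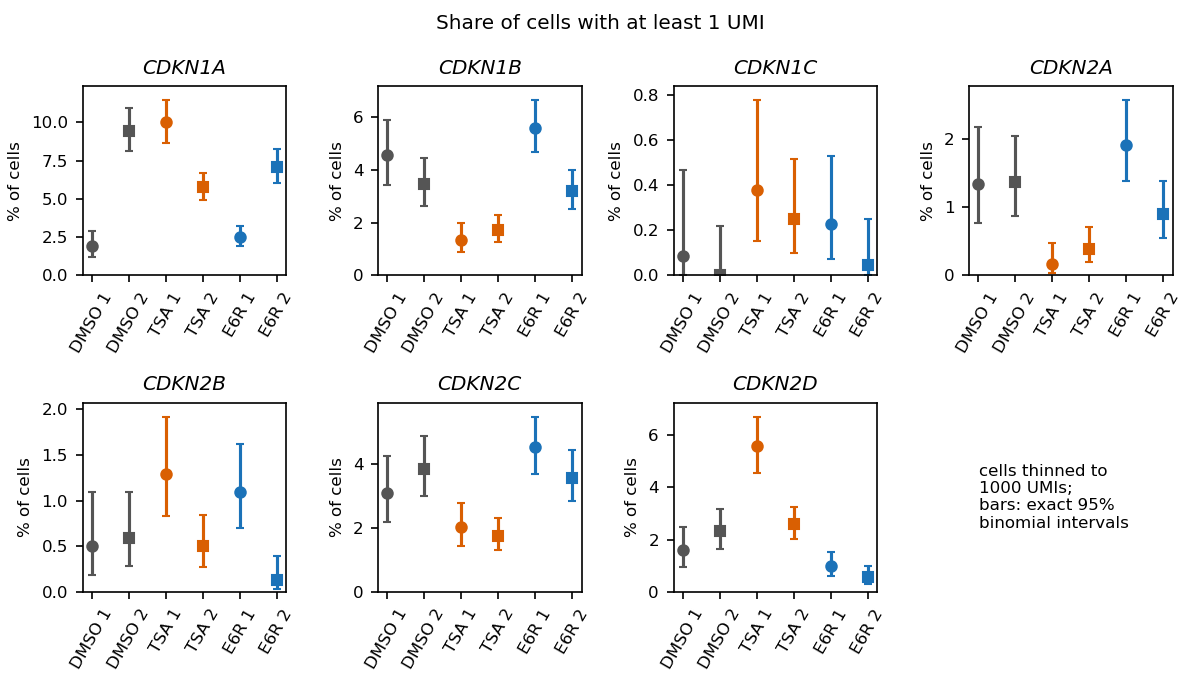
Percent of cells with at least 1 UMI of each gene in the 6 libraries, cells thinned to 1000 UMIs, with exact 95% binomial intervals that cover counting error only. CDKN1B and CDKN2A have their 2 lowest shares in the TSA libraries, and the CDKN1A shares of 1.94% and 2.50% belong to replicate 1 of DMSO and E6R.

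Genes around the inhibitors were taken from 6 lists, of which 5 are described: the CDKs and cyclins they act on, the RB and E2F genes downstream, a turnover list made mainly of the machinery that degrades p21 and p27, transcriptional regulators of the inhibitors, and neighbours of the 7 loci. Of the 93 genes of all 6 lists 90 were tested, and 29 (32.2%) were called in TSA against DMSO, 14 higher and 15 lower, near the 29.7% of all genes. Their median log2 value was 0.15 against -0.01 over all genes. For E6R against DMSO 0 were called, with a median of 0.22 against 0.03. For E6R against TSA 42 (46.7%) were called, 27 higher and 15 lower, against 38.2% of all genes, with a median of 0.02 against -0.09. The 29 became 18 with DMSO replicate 1 left out, 11 with TSA replicate 1 left out and 10 with TSA replicate 2 left out, and the 42 became 17 and 16 with those TSA libraries left out. DESeq2 called 7 list genes for E6R against DMSO, and 9 passed with edgeR without the low-count filter. Shares of all genes called are not given here for these settings or with a library left out. Those counts therefore cannot be read as more or fewer than among all genes.

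Among 13 CDKs and cyclins, 2 rose and 5 fell under TSA, and 6 did not pass. CCND1, the D-type cyclin that activates CDK4 and CDK6, fell from 925 and 1082 CPM under DMSO to 137 and 125 under TSA, at a log2 value of -2.93 ± 0.21 (adjusted p = 0.000489), and stood at 1418 and 1422 CPM under E6R. CDK6, an INK4 target, fell from 195 and 151 to 32.0 and 31.5 CPM, at a log2 fold change of -2.45 ± 0.21 (adjusted p = 0.000727), and was 159 and 143 CPM under E6R. CDK2, a kinase held by the CIP/KIP family, rose from 27.0 and 23.3 to 55.3 and 59.6 CPM, by 1.19 ± 0.20 (adjusted p = 0.00528). CDK1, the mitotic kinase, rose from 56.1 and 49.5 to 104 and 103 CPM, by 0.98 ± 0.19 (adjusted p = 0.00799). Of their cyclin partners, CCNA2 was at -0.75 ± 0.20 (adjusted p = 0.0244) and CCNB2 at -1.01 ± 0.18 (adjusted p = 0.00664), both called lower and named after their values were seen. The other A, B and E cyclins of the list did not pass, and their log2 values went both ways. CCNB1 was at 0.19 (adjusted p = 0.465), CCNE1 at -0.09 (0.839) and CCNE2 at -0.22 (0.586). CCNA1, at no more than 1.75 CPM in any library, was at 2.84 (0.0827). In E6R against TSA 6 of the 13 were higher and 3 lower, with CCND1 higher by 3.43 ± 0.22 (adjusted p = 0.000228) and CCND3 lower, at -0.79 ± 0.25 (adjusted p = 0.0389).

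Among 13 RB and E2F genes 1 rose and 3 fell under TSA against DMSO. RB1, the protein that D-type cyclin kinases inactivate, rose from 44.8 and 45.1 to 97.4 and 83.0 CPM (adjusted p = 0.0147). E2F3, an activator of S-phase genes, fell from 57.4 and 54.5 to 15.6 and 15.4 CPM, at a log2 fold change of -1.85 ± 0.20 (adjusted p = 0.00124), and E2F5 fell by 1.38 ± 0.34 (adjusted p = 0.0197). Under E6R against TSA 5 were higher and 0 lower, E2F3 by 2.09 ± 0.20 (adjusted p = 0.000480). RB1 stood at 94.6 and 66.3 CPM under E6R, above both DMSO libraries. It passed the edgeR test neither against DMSO (adjusted p = 0.205) nor against TSA (0.580).

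The turnover list holds mainly ubiquitin ligase parts that act on p21 and p27, with PCNA and FBXW7 also in it. Of its 15 genes 4 rose and 3 fell under TSA, with FBXW7 among those that rose (0.79 ± 0.21, adjusted p = 0.0261). CUL1, the scaffold of the SKP2 ligase that marks p27 for destruction, fell from 71.0 and 71.7 to 9.50 and 9.32 CPM, at a log2 fold change of -2.92 ± 0.22 (adjusted p = 0.000534), and was 97.0 and 75.9 CPM under E6R. CUL4A, the scaffold of a ligase that acts on p21, fell by 1.22 ± 0.24 (adjusted p = 0.00867). SKP1, the adaptor of the SKP2 ligase, rose by 1.06 ± 0.19 (adjusted p = 0.00647), and RNF123, a ligase for p27 in the cytoplasm, rose by 1.14 ± 0.29 (adjusted p = 0.0225). In E6R against TSA 6 were higher and 3 lower, CUL1 by 3.20 ± 0.22 (adjusted p = 0.000232) and RNF123 at -1.24 ± 0.28 (adjusted p = 0.0111).

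Of 18 transcriptional regulators 1 rose and 1 fell under TSA. FOXO3, a factor that activates CDKN1B, fell from 85.4 and 67.7 to 29.6 and 35.2 CPM, at a log2 fold change of -1.24 ± 0.21 (adjusted p = 0.00543). FOXO1 and FOXO4, also in the list, went the other way without passing, at 2.20 ± 0.81 (adjusted p = 0.0748) and 1.27 ± 0.44 (0.0632). A link of these genes to CDKN1B was not tested. In E6R against TSA 4 of the 18 were higher and 3 lower, among them SMAD3 at 2.26 ± 0.69 (adjusted p = 0.0332) and FOXO4 at -1.40 ± 0.43 (adjusted p = 0.0330). SMAD3, which carries TGF-beta signals, differed by replicate as well, at 30.9 and 9.33 CPM under E6R.

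Of 14 locus neighbours 12 were tested, and 2 rose and 1 fell under TSA. MTAP, which lies next to CDKN2A, fell from 46.1 and 38.1 to 18.9 and 18.2 CPM, at a log2 fold change of -1.18 ± 0.21 (adjusted p = 0.00610), and was 60.5 and 57.5 CPM under E6R. KRI1, which lies next to CDKN2D, rose from 109 and 81.9 to 185 and 167 CPM (0.88 ± 0.21, adjusted p = 0.0171). KCNQ1OT1, an imprinted RNA of the CDKN1C region antisense to KCNQ1, whose reads cannot be told apart without strand, rose from 79.2 and 50.9 to 129 and 173 CPM (1.21 ± 0.27, adjusted p = 0.0143) and was lower under E6R than under TSA, at -2.43 ± 0.28 (adjusted p = 0.000874). MTAP was higher under E6R than under TSA by 1.67 ± 0.21 (adjusted p = 0.00111).

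**Figure D4:**
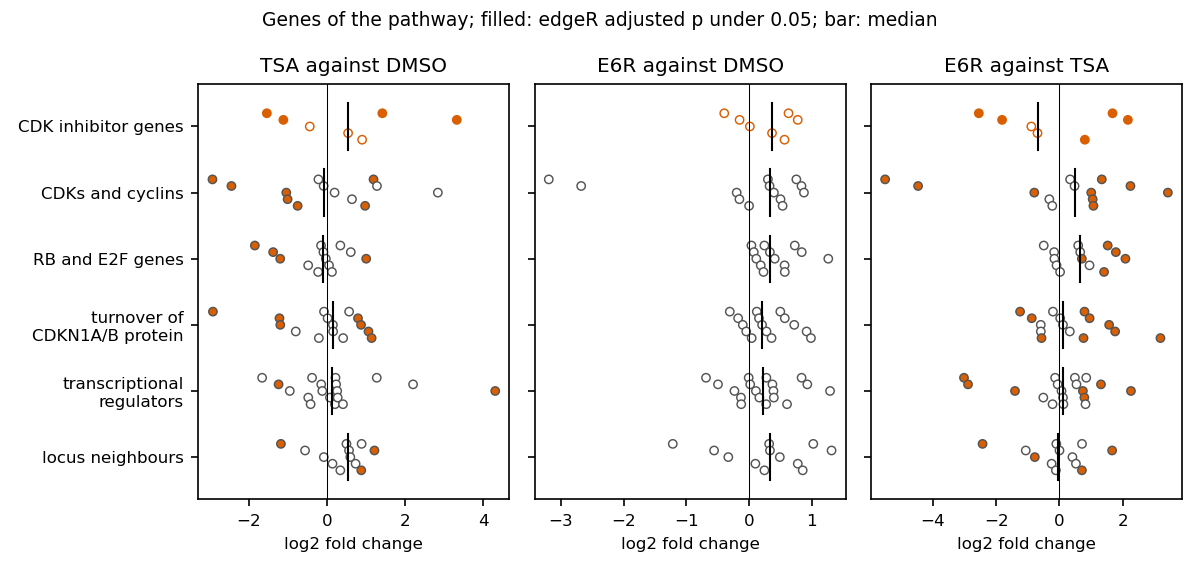
Log2 fold change of each tested gene of the 7 CDK inhibitors and of the 5 lists described, in 3 panels for the 3 comparisons; filled points passed an adjusted p of 0.05 by edgeR and vertical bars are list medians. Each panel has its own horizontal scale; called genes lie on both sides of 0 for TSA against DMSO, and the E6R against DMSO panel holds no filled point.

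Whether the inhibitors varied with cell-cycle RNA was asked within each library. Cells thinned to 1000 UMIs were ranked by the UMIs of a G2/M list and, separately, an S list, and the top 25% were compared with the bottom 25%, with library as a block in edgeR. CDKN1A, CDKN1B, CDKN2C and CDKN2D had enough UMIs to be tested. For G2/M 0 of these 4 were called, against 8.11% of 7475 genes, and for S 0 of 4, against 5.73% of 7446 genes. Both shares include genes of the phase lists, which differ between the classes by construction. At an unadjusted p under 0.05 there was 1 of the 4 members for G2/M and 0 for S, and DESeq2 called 0 of them in both.

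CDKN2C was higher in the G2/M-high cells of 6 of 6 libraries, by 0.63 ± 0.22 on the log2 scale, and did not pass after adjustment (adjusted p = 0.0719). How many of all genes went one way in 6 libraries was not counted. Some of these rises were of very few UMIs. In low and high cells CDKN2C had 7 and 19 UMIs in DMSO replicate 1 and 23 and 24 in DMSO replicate 2. It had 7 and 9, and 10 and 12, in TSA replicates 1 and 2, and 20 and 33, and 16 and 32, in E6R replicates 1 and 2. Its plain CPM in low and high cells was 23.6 and 64.2 in DMSO replicate 1, 54.8 and 57.1 in DMSO replicate 2, 15.1 and 19.4 in TSA replicate 1, 14.3 and 17.2 in TSA replicate 2, 36.4 and 60.1 in E6R replicate 1 and 28.7 and 57.5 in E6R replicate 2. Without DMSO replicate 2, where the gap was smallest, it passed at 0.79 (adjusted p = 0.0403). CDKN1A showed -0.04 ± 0.16 for G2/M (adjusted p = 0.943) and -0.09 ± 0.17 for S (adjusted p = 0.865). CDKN1B was at 0.16 ± 0.23 and 0.13 ± 0.22, and CDKN2D at 0.22 ± 0.31 and 0.31 ± 0.25. These classes are ranges of a score, and 36 to 218 cells of a library held exactly the UMI number at a G2/M boundary. At an S boundary 126 to 551 cells did, against 296 to 697 cells in a class, and ties were broken at random. The S-low cells had a median of only 1 to 2 S-list UMIs, so the S classes were less sharply drawn than those of G2/M.

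**Figure D5:**
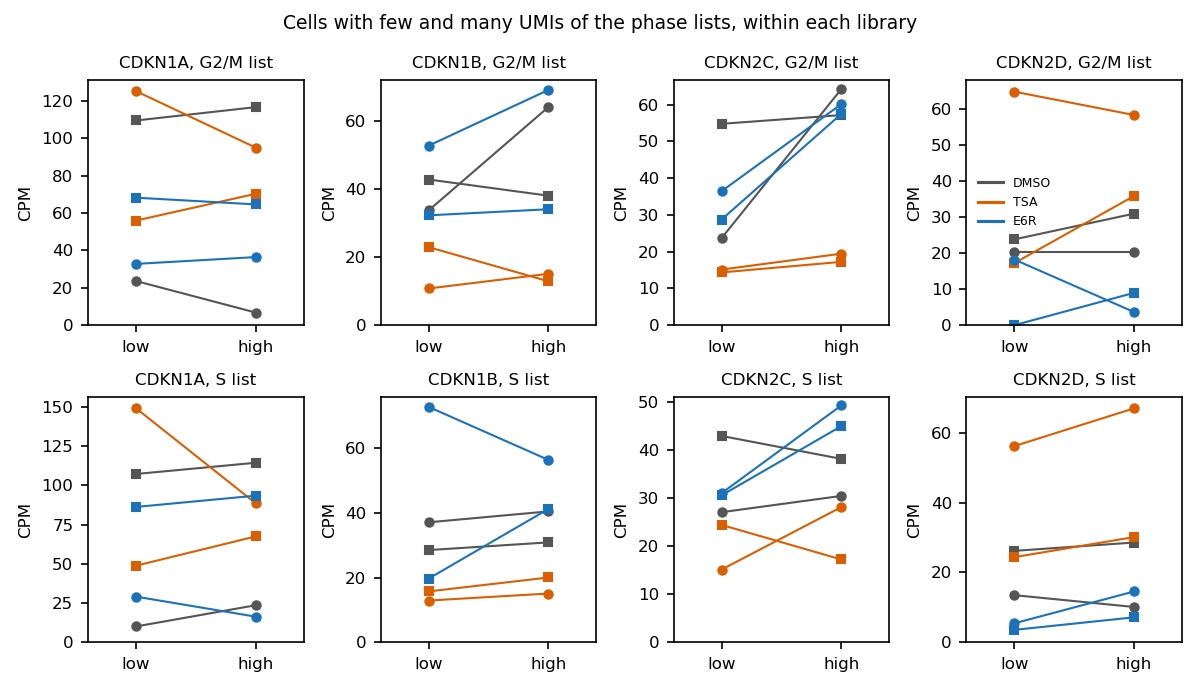
CPM of the 4 tested genes in the bottom and top 25% of cells by G2/M-list UMIs (upper row) or S-list UMIs (lower row), one line per library (circles replicate 1, squares replicate 2), cells thinned to 1000 UMIs. CDKN2C rises from low to high in all 6 lines for the G2/M list, and its lines for the S list go both ways.

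Cells with a CDKN1A UMI were also compared with the other cells of their library at 1000 UMIs a cell, a comparison added after the data were seen. There were 23, 159, 185, 161, 55 and 158 such cells in DMSO replicates 1 and 2, TSA 1 and 2 and E6R 1 and 2. By edgeR 8 of 8242 genes (0.0971%) were called, all lower in the cells with a CDKN1A UMI. They were FGF23 at -1.78 ± 0.42 (adjusted p = 0.0210), the noncoding RNAs MEG3 at -0.54 ± 0.12 (0.00590) and MALAT1 at -0.36 ± 0.07 (0.00333), AL627171.2 at -0.41 ± 0.09 (0.00743), and MTRNR2L1, MTRNR2L8, MTRNR2L10 and MTRNR2L12. The MTRNR2L genes are near-identical to the mitochondrial ribosomal RNA gene, so their reads are uncertain. None of the tested members or list genes was among the 8. Leaving out TSA replicate 1 ended all calls (0 genes), and leaving out TSA replicate 2 left 3. The count was 2 with E6R replicate 1 left out and 1 with E6R replicate 2 left out, 9 or 8 with a DMSO library left out, and DESeq2 called 1.

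The genes whose level over the 6 libraries was most like that of a member were found by Pearson's r of log2 CPM among 7514 genes with a mean of at least 20 CPM, as a description of 6 libraries. For CDKN1A these were INA (r = 0.997), a neuronal intermediate filament, and CLGN (0.995), and 20 genes exceeded 0.95. INA stood at 59.3 and 177 CPM under DMSO, 219 and 160 under TSA, and 69.8 and 176 under E6R, with the same 2 low libraries as CDKN1A. For CDKN1B they were PUM2 (0.999) and MKLN1 (0.996), with 298 genes over 0.95. For CDKN2C TARDBP (0.993) is given, with 173, and for CDKN2D PIGH (0.997) and STIM1 (0.993), with 112. The number of genes that followed CDKN1A this closely was the smallest of these 4.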

How the data were processed

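The 6 libraries held, as deposited by the authors, whole-number UMI counts per gene and barcode, not normalized. Per the submitters' processing notes, STARsolo 2.7.9a and GRCh38 were used; the sources used here give no annotation, strand setting or barcode rule. Of the gene identifiers, all 7 of the members matched GENCODE 29, which gave the positions. No doublet caller was run; dropping the 5% deepest cells was an alternative. UMI counts were summed over cells of at least 500 genes and at most 20% mitochondrial UMIs and tested with edgeR 4.0.16 in R 4.3.3 (TMM, filterByExpr, treatment as the only term, all 6 libraries in 1 fit, common biological coefficient of variation 0.288). The code was first run on simulated data. For the treatment comparisons these had a smaller spread than found here, and only well-counted genes were changed. That run therefore does not gauge the test for sparse or variable members. SE came from the F statistic. Alternatives included DESeq2 1.42.0, other scalings, filters, depths and each library left out.

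Members are named whatever their result. From each list the 2 largest rises and 2 largest falls (TSA against DMSO) and 1 of each (E6R against TSA) are named, among genes with adjusted p under 0.05 and a mean of at least 5 CPM; the 2 most alike genes are named for members of at least 20 CPM. One list and 1 alike gene under this rule are not reported here, though counts over all 6 lists include that list. The members and lists were chosen with earlier results of these data known. The 3 comparisons share libraries.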

Additional observations from a re-analysis of the deposited data

How the results depend on the processing

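Over the alternatives, 434 log2 values of single members kept direction and side of the threshold, 28 lost a call, 5 gained one and 20 changed sign; none of those sign changes was in a called value. In E6R against TSA, CDKN1B, CDKN2A and CDKN2D were called under all 19 alternatives. Members called in TSA against DMSO (4) became 2 with cells thinned to 1000 UMIs and 1 with a fold of 1.5 tested, and 0 to 4 with 1 library left out. List genes called there (29) became 17 with a fold of 1.5 tested, and 10 to 35 with 1 library left out. Members called in E6R against TSA (5) became 3 with library sums thinned and 3 with a fold of 1.5 tested, and 3 to 6 with 1 library left out; list genes (42) became 27 with a fold of 1.5 tested, and 16 to 42. List genes called in E6R against DMSO (0) became 9 without the low-count filter and 7 with DESeq2. The members called by G2/M were 0 to 1 with 1 library left out. Genes called in cells with a CDKN1A UMI (8) became 139 without the low-count filter, 16 on total counts (8 higher) and 1 with DESeq2, and 0 to 9 with 1 library left out. Shares of all genes called were not set beside these counts of members and list genes. Apart from fewer libraries or smaller counts by construction, the cause was not tested.

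CDKN1A passed without the low-count filter (0.83, adjusted p = 0.0109, for TSA against DMSO; -0.65, adjusted p = 0.0475, for E6R against TSA). Its E6R against DMSO value was -0.11 on total counts, -0.031 with 4 libraries, -0.29 without the 5% of cells with most UMIs, -0.32 with cells thinned to 1000 UMIs, -0.078 with library sums thinned, -0.084 without shared barcodes, and -0.96 to 1.55 with 1 library left out. CDKN2B there was 0.016 without the low-count filter, 0.045 without the 5% of cells with most UMIs, 0.16 with cells thinned, and -1.09 to 0.51 with 1 library left out. CDKN1C was -0.50 to 1.96 and CDKN2D -0.55 to 0.014 when 1 library was left out. By phase, leaving out 1 library gave -0.13 to 0.053 (CDKN1A, G2/M), -0.21 to 0.13 (CDKN1A, S) and -0.053 to 0.39 (CDKN1B, S), and CDKN2D by S was -0.19 with 1500 UMIs. CDKN1C could not be tested with cells thinned to 1000 UMIs.

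With a replicate block, the members called stayed 4, 0 and 5, and CDKN1A was 1.34 (adjusted p = 0.0617) for TSA against DMSO and -1.25 (adjusted p = 0.0567) for E6R against TSA. List genes called were 34, 0 and 49. Deviations of libraries of the same number correlated at 0.242 (DMSO and TSA), 0.564 (DMSO and E6R) and 0.166 (TSA and E6R) over 7515 genes. The labels do not say that a number marks a shared batch or day, and 2 numbers are too few to settle pairing from the data, so it is undecided, and the block was kept as an alternative.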
